A study of Mus musculus with 6 samples.

Results

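The genes described here encode the non-collagen part of the muscle extracellular matrix, together with the enzymes that assemble, crosslink and degrade it. They comprised 39 genes selected by symbol, of 23282 rows in the count tables, and all 39 were present. After a filter on low counts 38 of them remained among 11700 genes tested; Mfap4, an elastic microfibril protein, had 13 counts or fewer in every library and was not tested. Every muscle fibre is wrapped in a basement membrane of laminins, nidogens, perlecan and agrin, which is anchored to the fibre through dystroglycan and integrins. Outside it lies an interstitial matrix of collagens, fibronectin, elastic fibres, proteoglycans and matricellular proteins, most of which is made by resident fibroblasts. In old muscle this interstitial matrix is known to become thicker and more crosslinked.

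RNA was sequenced from the gastrocnemius, a calf muscle, of wild-type C57/BL6J male mice aged 20 months. In the inotodiol group 3 mice were given inotodiol, a triterpenoid of the chaga mushroom, by mouth each day for 10 weeks at 0.35 mg/kg. In the vehicle group 3 mice were given the carrier alone, which was normal saline at 0.9% with 5% Tween 80 and 40% polyethylene glycol. The comparison asks which muscle transcripts the treatment changed. Libraries held 8961893 to 9953764 counts. Muscle fibre genes were abundant in all 6 libraries, with Acta1, the skeletal actin gene, at 42389 to 45172 CPM (read counts relative to the size of the library) in inotodiol and 42843 to 44654 CPM in vehicle muscle. All CPM values were scaled by the trimmed mean of M-values (TMM) method unless called unscaled. Reads of the 39 matrix genes summed to 1436 to 1669 unscaled CPM in the inotodiol libraries and 1649 to 2124 unscaled CPM in the vehicle libraries. With TMM scaling the sums overlapped, at 1768, 1546 and 1632 CPM in inotodiol replicates 1 to 3 and 1556, 1730 and 2003 CPM in vehicle replicates 1 to 3. The gene Rn45s held 10.2%, 9.56% and 4.33% of the counts in inotodiol replicates 1 to 3, and 3.97%, 6.82% and 4.38% in vehicle replicates 1 to 3.

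No matrix gene differed between inotodiol and vehicle muscle after adjustment over all genes. In edgeR's quasi-likelihood test 0 of 38 were called at a Benjamini-Hochberg adjusted p under 0.05, as were 0% of all genes tested, and their adjusted p ran from 0.96 to 0.998. DESeq2 and limma-voom also called 0 of the 38. At an unadjusted p under 0.05 there were 5 of the 38, against 4.87% of all genes. Vcan was higher with inotodiol, where the share of all genes was 2.67%. Lama4, Loxl2, Serpinh1 and Postn were lower with inotodiol, where the share of all genes was 2.21%. Without vehicle replicate 3 there were 3 of 38, namely Lama4, Postn and Vcan, against 532 of 12047 genes overall. Scaled by library totals alone, 8 matrix genes passed that unadjusted threshold, all 8 lower, as 588 of 726 genes overall were, against 258 of 570 with TMM.

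The fitted fold changes leaned to lower values with inotodiol, and this lean was small without 1 vehicle mouse. Of the 38 genes 29 had a log2 fold change below 0, against 50.1% of all genes, and their median was -0.19, against -0.00073 for all genes. Without vehicle replicate 3 the count was 20 of 38 and the median was -0.029, where the median of all genes was 0.0065. Without vehicle replicate 1 the median was -0.31. With library totals, which moved the median of all genes to -0.12, 35 of 38 lay below 0 with a median of -0.32. Leaving out vehicle replicate 3 turned 10 genes from below 0 to above it, namely Sparc, Fbln5, Ogn, Nid2, Lox, Fbn1, Tnc, Eln, Timp1 and Bgn, and turned 1, Lamb2, the other way. Among these, Nid2, Fbn1, Tnc and Lamb2 already lay near 0 with all libraries, at -0.0064, -0.0057, -0.054 and 0.015. The groups did not overlap for 4 of the 38 genes, or 10.5%, a share close to the 10.4% of all genes. Vcan was the 1 gene with all inotodiol values on top (5.15% of all genes), and Lama4, Tgfbi and Serpinh1 were the 3 with all vehicle values on top (5.26% of all genes).

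**Figure D1:**
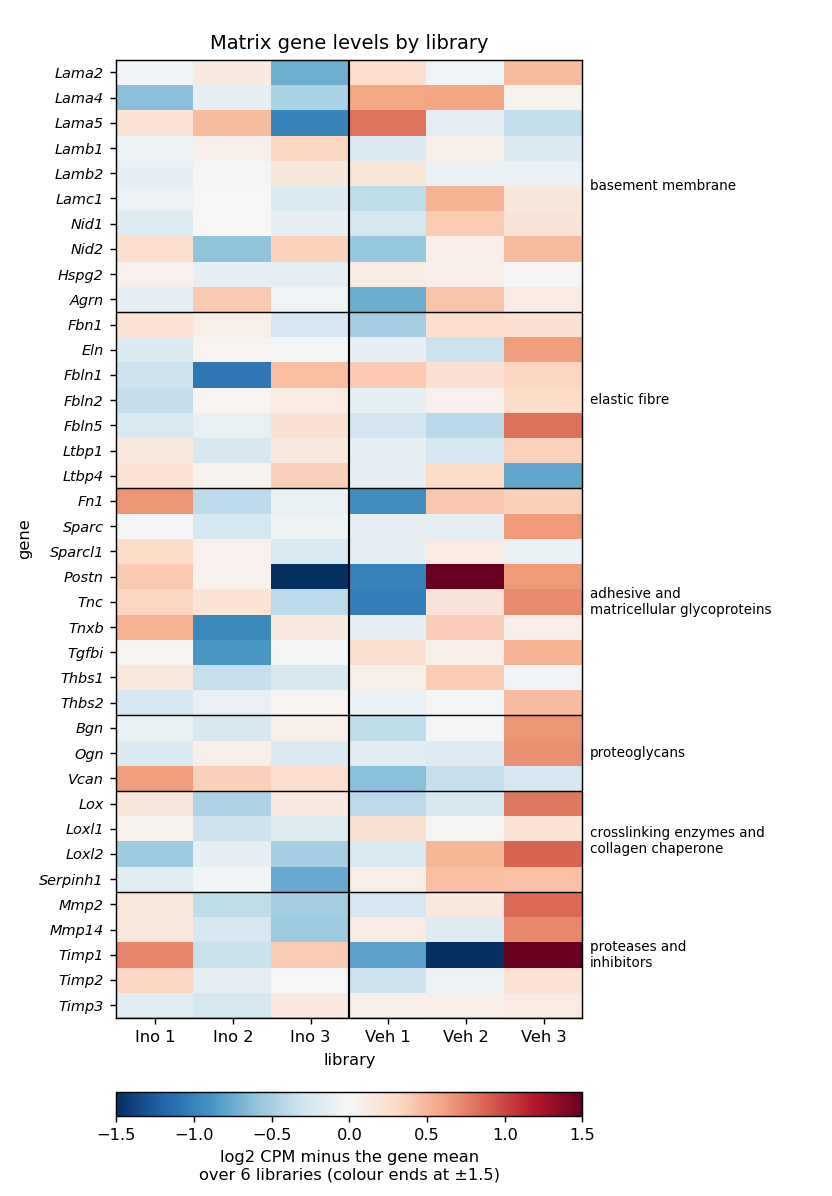
Levels of the 38 tested matrix genes (rows, by role) in the 3 inotodiol and 3 vehicle libraries (columns), as log2 CPM with a prior count of 2 minus the gene's mean over the 6 libraries; the colour scale ends at ±1.5. Vehicle 3 was the highest library for 17 of the 38 genes, and the rows of Lama4, Vcan, Serpinh1 and Tgfbi part the groups.

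Vehicle replicate 3 was the highest of the 6 libraries for 17 of the 38 matrix genes, against 15.8% of all genes, and the lowest for 2, Lamb1 and Ltbp4 (15.3% of all genes). Inotodiol replicate 2 was the highest library for 0 of the 38. The summed CPM of cell type markers was highest in the same library for 3 of 12 lists, those of fibroblasts, tendon and macrophages. The 12 fibroblast and fibro-adipogenic progenitor markers summed to 1402 to 1686 CPM in inotodiol muscle, and to 1415, 1616 and 2231 CPM in vehicle replicates 1 to 3. They include the matrix genes Col1a1, Col3a1, Dcn and Lum, all highest in vehicle 3, so this sum is partly a matrix sum. Without these matrix genes the sum, most of it Gsn, was higher in inotodiol 1 than in vehicle 3. Of the other markers Dpt, Dpp4, Cd34, Ly6a and Clec3b were highest in vehicle 3. Pdgfra, Pi16 and Gsn were highest in inotodiol 1, at 20.3, 11.7 and 606 CPM, against 19.6, 7.96 and 535 CPM in vehicle 3. The 8 tendon markers summed to 254 to 324 CPM in inotodiol muscle, and to 244, 305 and 553 CPM in vehicle replicates 1 to 3. This too is partly a matrix sum, as the matrix genes Fmod and Thbs4 held most of it in vehicle 3, at 198 and 275 CPM. Among the tendon markers that are not matrix genes, Tnmd and Scx were highest in vehicle 3 and Mkx in vehicle 1. For the 12 macrophage markers the sums were 239, 76.2 and 122 CPM in inotodiol replicates 1 to 3, and 150, 120 and 334 CPM in vehicle replicates 1 to 3. Of these lists 10 of 12 fibroblast, 5 of 7 tendon and 8 of 11 macrophage genes tested had log2 fold changes below 0, and without vehicle 3 there were 6 of 12, 2 of 8 and 5 of 11. The spread between mice was wider in the vehicle group for 24 of the 38 matrix genes, by the SD of log2 CPM, against 47% of all genes.

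In the other cell type lists vehicle 3 did not have the highest sum. Endothelial markers summed to 172 to 199 CPM in inotodiol and 152 to 183 CPM in vehicle muscle, and those of pericytes and smooth muscle to 121 to 167 CPM in inotodiol and 123 to 152 CPM in vehicle muscle. Schwann cell markers summed to 122, 120 and 219 CPM in inotodiol replicates 1 to 3 and to 98.6, 80.9 and 113 CPM in vehicle replicates 1 to 3, and 9 of 9 lay above 0, 3 of them at an unadjusted p under 0.05. Hepatocyte markers, which are not muscle genes, summed to 694, 288 and 98.1 CPM in inotodiol replicates 1 to 3, against 14.9, 86.5 and 54.3 CPM in vehicle replicates 1 to 3. All 12 lay above 0 with a median log2 fold change of 2.86 (2.88 without vehicle 3) and an unadjusted p under 0.05, and edgeR called 0 after adjustment. Exocrine pancreas markers summed to 59.8 CPM in inotodiol 1 and to 1.51 CPM or less in every other library. The sums of adipocyte, erythroid and muscle stem cell markers overlapped between groups. Every marker present in the tables had a count in at least 1 library. The part of all these cells in the matrix values was not tested, and in whole muscle fewer cells of a type and less RNA per cell cannot be told apart.

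Among the basement membrane genes, Lama4 stood lowest with inotodiol and most others lay close to the vehicle values. Of 10 genes 7 had log2 fold changes below 0, with a median of -0.16, and the same count of 7 and a median of -0.18 without vehicle 3. Lama4 encodes the laminin alpha 4 chain of vascular and nerve basement membranes and lies on chromosome 10 (GRCm38, 38965515 to 39110188). It had 4.77, 6.88 and 5.33 CPM in inotodiol replicates 1 to 3, against 11.3, 11.3 and 7.76 CPM in vehicle replicates 1 to 3. The highest inotodiol value lay under the lowest vehicle value, and the lowest vehicle value was that of replicate 3, the mouse with the most matrix reads. The log2 fold change was -0.84 ± 0.31 (SE; 95% interval -1.51 to -0.16), a fold of 0.56, and leaving out 1 library at a time gave -0.999 to -0.73. Of the endothelial markers 8 of 10 lay above 0 with a median of 0.20, or 6 of 10 and 0.13 without vehicle 3. Of the Schwann markers 9 of 9 lay above 0 with a median of 0.55, or 0.77 without vehicle 3. With all libraries 50.1% of all genes lay below 0. The part of vessel and nerve cells in the Lama4 values was not tested.

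Lama2, on chromosome 10, encodes the alpha 2 chain of laminin-211, the main laminin around muscle fibres, whose loss causes a congenital muscular dystrophy. It had 19.2, 21.6 and 11.8 CPM in inotodiol muscle, against 23.5, 18.9 and 27.2 CPM in vehicle muscle. Inotodiol 3 was the lowest and vehicle 3 the highest, and the groups overlapped, with a log2 fold change of -0.40 ± 0.25 that was -0.19 without inotodiol 3. Lamb1, a laminin beta chain, had 27.0, 30.2 and 35.4 CPM with inotodiol and 24.8, 30.3 and 24.7 CPM with vehicle, a log2 fold change of 0.21 ± 0.19, or 0.10 without inotodiol 3. Lamb2, the beta chain concentrated at the neuromuscular junction, had the most reads of the role, with 161, 172 and 197 CPM in inotodiol and 199, 163 and 163 CPM in vehicle muscle. Its log2 fold change was 0.015 ± 0.14 (95% interval -0.29 to 0.32), among the narrowest intervals of the 38, and it was -0.033 without vehicle 3. Lamc1, the gamma chain that most laminins share, averaged 29.4 ± 2.08 CPM with inotodiol and 34.7 ± 10.3 CPM with vehicle (SD, n = 3 each).

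The linkers of the basement membrane gave no separation between groups. Nid1, nidogen 1, which bridges laminin and collagen IV, averaged 22.1 ± 1.53 CPM in inotodiol and 26.0 ± 5.68 CPM in vehicle muscle (SD, n = 3 each). Hspg2, which encodes the heparan sulphate proteoglycan perlecan, averaged 24.1 ± 2.04 CPM in inotodiol and 26.5 ± 0.88 CPM in vehicle muscle, on the same measure. Nid2 averaged 4.51 ± 1.51 and Lama5, a further laminin alpha chain, 4.96 ± 2.34 CPM in inotodiol muscle, against 4.53 ± 1.63 and 5.63 ± 2.71 CPM in vehicle muscle (SD, n = 3 each). Agrn, agrin, which clusters acetylcholine receptors at the synapse, had 28, 40 and 31 counts in inotodiol libraries and 18, 42 and 37 counts in vehicle libraries, few enough that its 95% interval ran from -0.98 to 1.14.

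In the elastic fibre role the sign of the lean changed without vehicle 3. Of 7 genes tested 5 lay below 0 with a median of -0.14, and without that library 2 of 7 lay below 0 with a median of 0.11. Ltbp4, a latent TGF-beta binding protein whose variants modify the course of muscular dystrophy in mice, had 30.7, 27.6 and 34.2 CPM in inotodiol and 24.4, 32.7 and 15.4 CPM in vehicle muscle. Vehicle 3 was the lowest library here, unlike for most matrix genes, and the log2 fold change was 0.35 ± 0.24, or 0.11 without that library and 0.64 without vehicle 2. Fbln1, fibulin 1, had 4.99, 2.88 and 8.71 CPM with inotodiol and 8.32, 7.45 and 7.96 CPM with vehicle. The 3 vehicle values lay close together while the inotodiol values spread on both sides of them, and the log2 fold change was -0.51 ± 0.39. It was -1.004 without inotodiol 3 and -0.20 without inotodiol 2. Eln, elastin itself, had 11.2, 13.3 and 12.7 CPM in inotodiol and 11.8, 10.3 and 20.0 CPM in vehicle muscle; its log2 fold change of -0.18 ± 0.28 was 0.17 without vehicle 3.

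The remaining elastic fibre genes overlapped between groups. Fbn1, fibrillin 1, the backbone of microfibrils, averaged 23.0 ± 3.64 CPM in inotodiol and 23.1 ± 6.39 CPM in vehicle muscle (SD, n = 3 each). Fbln5, which helps elastin assemble, had 9.22, 9.99 and 12.7 CPM with inotodiol and 8.85, 8.10 and 19.3 CPM with vehicle, the last again from replicate 3. Fbln2 averaged 15.3 ± 2.60 and Ltbp1, which holds latent TGF-beta in the matrix, 8.87 ± 1.34 CPM in inotodiol muscle, against 16.9 ± 2.46 and 8.78 ± 2.05 CPM in vehicle muscle (SD, n = 3 each).

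Of the 9 adhesive and matricellular glycoproteins 7 lay below 0, with a median of -0.25, and without vehicle 3 there were 5 with a median of -0.043. Postn, periostin, a matricellular protein of fibrotic and regenerating tissue, had the lowest fold change of all 38 genes and rested on few reads. It had 21, 16 and 0 counts in inotodiol replicates 1 to 3, against 7, 147 and 28 counts in vehicle replicates 1 to 3; the 0 allows up to 3 counts, or 0.314 unscaled CPM, by counting error alone. Vehicle 2 held most of the vehicle reads and vehicle 1 lay under inotodiol 1 and 2. The log2 fold change of -2.25 ± 1.00 was -0.36 without vehicle replicate 2.

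Tgfbi, a TGF-beta induced protein that binds collagens and integrins, lies on chromosome 13 (56609523 to 56639562). It had 19.3, 10.1 and 18.5 CPM in inotodiol muscle, against 22.1, 19.9 and 27.0 CPM in vehicle muscle. The groups did not overlap, though inotodiol 1 and vehicle 2 were only just apart, and the log2 fold change was -0.52 ± 0.26 (95% interval -1.08 to 0.029). Leaving out 1 library at a time gave -0.68 to -0.28, -0.28 being the value without inotodiol 2. Sparc, osteonectin, which binds collagen as fibrils form, had 216, 183 and 209 CPM with inotodiol and 202, 199 and 342 CPM with vehicle. Apart from vehicle 3 the 5 libraries lay together, and the log2 fold change of -0.29 ± 0.19 was 0.012 without it. Its relative Sparcl1, hevin, had the most reads of the role, at 381, 329 and 267 CPM in inotodiol and 285, 341 and 294 CPM in vehicle muscle, with a log2 fold change of 0.089 ± 0.15.

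Fn1, fibronectin, varied widely within both groups, with 53.8, 26.0 and 31.6 CPM in inotodiol and 17.8, 45.1 and 43.6 CPM in vehicle muscle. Liver also expresses Fn1 strongly. Its highest and lowest libraries, inotodiol 1 and vehicle 1, were also those of the hepatocyte markers, whereas inotodiol 2 was second highest for those markers and second lowest for Fn1. Their part in the Fn1 values was not tested. Tnc, tenascin C, a protein of injured and tendon-bound muscle, was also lowest in vehicle 1, at 8.03, 7.43 and 4.82 CPM with inotodiol and 3.05, 7.34 and 10.6 CPM with vehicle. The thrombospondins Thbs1, an activator of latent TGF-beta, and Thbs2 averaged 11.2 ± 2.21 and 10.1 ± 1.08 CPM in inotodiol muscle, against 13.6 ± 2.06 and 11.97 ± 2.74 CPM in vehicle muscle (SD, n = 3 each). Tnxb, tenascin X, had 18 counts or fewer in every library. In the annotation an exon of Fn1 overlaps one of Apol7d on the other strand, and reads of such pairs could not be separated.

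The 3 proteoglycans did not move as 1 group. Vcan, versican, a large hyaluronan-binding proteoglycan of loose and provisional matrix, lies on chromosome 13 (89655312 to 89742509). It had 88, 71 and 71 counts in inotodiol libraries, against 37, 44 and 52 counts in vehicle libraries, or 9.55, 7.88 and 7.28 CPM against 3.90, 4.75 and 5.11 CPM. All 3 inotodiol mice lay above all 3 vehicle mice. The log2 fold change was 0.84 ± 0.33 (95% interval 0.14 to 1.55), a fold of 1.79, and leaving out 1 library at a time gave 0.72 to 0.93. The 2 small leucine-rich proteoglycans lay below 0 with vehicle 3 and above 0 without it. Bgn, biglycan, had 75.8, 68.8 and 86.8 CPM with inotodiol and 62.5, 80.2 and 129 CPM with vehicle, a log2 fold change of -0.23 ± 0.22 that was 0.11 without that library. Ogn, osteoglycin, had 18.9, 23.1 and 18.9 CPM with inotodiol and 19.5, 19.1 and 35.1 CPM with vehicle, and its log2 fold change of -0.28 ± 0.25 was 0.071 without it.

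All 4 genes that crosslink or fold collagen had log2 fold changes below 0, with a median of -0.47, and 3 of 4 did without vehicle 3, with a median of -0.41. Serpinh1 encodes HSP47, the chaperone that procollagen needs in the endoplasmic reticulum, and lies on chromosome 7 (99345376 to 99353239). It had 12.4, 13.5 and 8.20 CPM in inotodiol muscle, against 14.9, 19.2 and 19.1 CPM in vehicle muscle. The groups did not overlap, and the log2 fold change was -0.64 ± 0.26 (95% interval -1.19 to -0.091), a fold of 0.64. Leaving out 1 library at a time gave -0.78 to -0.45. Loxl2, a lysyl oxidase that crosslinks collagen, elastin and basement membrane collagen IV (chromosome 14, 69609068 to 69695834), had 7.38, 9.88 and 7.58 CPM with inotodiol and 9.16, 15.3 and 19.8 CPM with vehicle. Only vehicle 1 reached down into the inotodiol range. The log2 fold change was -0.84 ± 0.31 (95% interval -1.499 to -0.17), and -0.56 without vehicle 3.

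The other lysyl oxidases overlapped between groups. Loxl1, which crosslinks elastin, had 21.2, 16.3 and 17.8 CPM in inotodiol and 23.8, 20.5 and 23.5 CPM in vehicle muscle, a log2 fold change of -0.29 ± 0.20. Lox had the most reads of the role, with 33.9, 21.6 and 33.0 CPM with inotodiol and 22.9, 25.4 and 52.0 CPM with vehicle. Its high value again came from vehicle 3, and the log2 fold change of -0.18 ± 0.29 was 0.29 without that library.

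**Figure D2:**
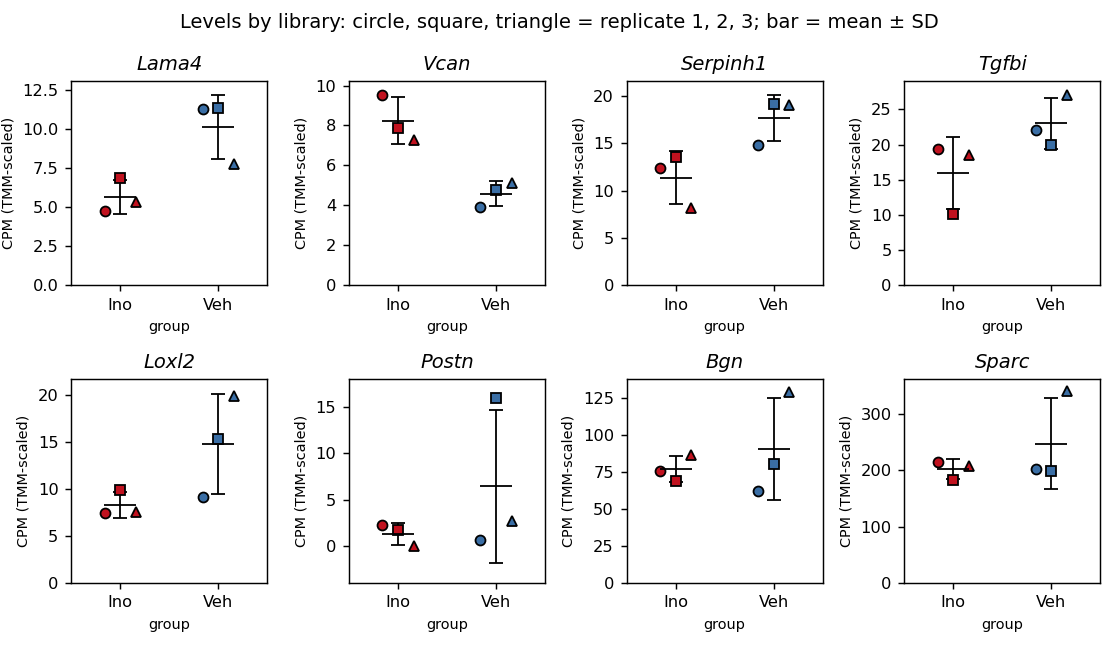
CPM (TMM-scaled, linear axes) of 8 matrix genes in each library, inotodiol at the left and vehicle at the right of each panel; horizontal bars are means and error bars the SD of 3 mice. The groups are apart for Lama4, Vcan, Serpinh1 and Tgfbi, whereas single vehicle libraries stand out for Postn (replicate 2) and for Bgn and Sparc (replicate 3).

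Promoter sequences were read for the genes whose groups did not overlap, to show the sequence at their start sites. The RefSeq promoter table for GRCm38.p6 matched 27 of the 39 matrix genes, with 35 promoters in all, and holds 250 bases before and 50 bases after each start site. It covers Vcan, Serpinh1 and Tgfbi among those genes. On both strands 5 motifs were searched: the core promoter element TATAAA, the AP-1 site with the letters TGANTCA, the heat shock element with the letters GAANNTTC, the SMAD-binding element with the letters CAGACA, and the Sp1-binding element with the letters GGGCGG. They are in capitals below, each sequence reads 5′ to 3′ on the gene's own strand, and no motif overlapped another in these 3 promoters.
Vcan, chr13:89742463-89742762, minus strand: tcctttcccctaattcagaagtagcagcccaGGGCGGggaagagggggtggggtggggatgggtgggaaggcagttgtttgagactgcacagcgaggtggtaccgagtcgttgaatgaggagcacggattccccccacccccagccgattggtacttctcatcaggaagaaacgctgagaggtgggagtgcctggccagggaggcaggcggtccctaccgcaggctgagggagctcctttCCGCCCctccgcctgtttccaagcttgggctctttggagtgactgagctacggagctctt
Serpinh1, chr7:99353190-99353489, minus strand: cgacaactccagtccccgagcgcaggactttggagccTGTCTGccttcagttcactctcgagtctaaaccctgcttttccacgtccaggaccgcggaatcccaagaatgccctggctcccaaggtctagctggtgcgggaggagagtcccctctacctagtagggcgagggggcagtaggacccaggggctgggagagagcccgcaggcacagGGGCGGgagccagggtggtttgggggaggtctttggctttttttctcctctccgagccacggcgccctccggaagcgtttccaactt
Tgfbi, chr13:56609336-56609635, plus strand: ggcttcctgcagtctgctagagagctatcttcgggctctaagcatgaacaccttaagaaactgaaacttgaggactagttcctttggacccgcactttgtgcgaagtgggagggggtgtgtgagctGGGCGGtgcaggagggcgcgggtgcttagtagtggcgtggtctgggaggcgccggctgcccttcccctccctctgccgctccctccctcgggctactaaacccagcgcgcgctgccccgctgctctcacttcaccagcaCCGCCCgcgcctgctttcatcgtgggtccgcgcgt

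All 3 promoters held the Sp1-binding element, which 35.7% of the 32851 promoters read and 24 of the 35 matrix gene promoters held. The SMAD-binding element was found in the Serpinh1 promoter and in neither of the others; 21% of all promoters and 10 of the 35 held one. The core promoter element, the AP-1 site and the heat shock element had no match in these 3 windows, and were present in 13.6%, 7.81% and 7.86% of all promoters. These matches describe the letters alone.

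In all 5 proteases and inhibitors vehicle 3 lay above the gene's mean log2 CPM, by 2.40 for Timp1 and by 0.12 to 0.85 for the other 4. Of 5 genes 4 lay below 0 with a median of -0.45, and without that library 3 of 5 did, with a median of -0.15. Mmp2, gelatinase A, which cuts collagen IV and denatured collagen, had 20.5, 13.98 and 12.7 CPM in inotodiol and 15.3, 20.3 and 33.3 CPM in vehicle muscle. Mmp14, the membrane protease that activates Mmp2, had 22.7, 17.1 and 13.9 CPM in inotodiol and 22.1, 17.7 and 33.6 CPM in vehicle muscle. In both genes the 2 lower vehicle libraries lay within the inotodiol range. Their log2 fold changes were -0.55 ± 0.29 and -0.45 ± 0.26, and -0.18 and -0.15 without vehicle 3.

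The 3 tissue inhibitors of metalloproteinases overlapped between groups. Timp2, which also takes part in Mmp2 activation, had 263, 192 and 212 CPM with inotodiol and 171, 199 and 246 CPM with vehicle, a log2 fold change of 0.11 ± 0.16 (95% interval -0.23 to 0.46). Timp3, the inhibitor that is bound to the matrix, had 169, 158 and 211 CPM with inotodiol and 201, 203 and 207 CPM with vehicle, a log2 fold change of -0.18 ± 0.14 (95% interval -0.48 to 0.12), the smallest standard error of the 38, and -0.31 to -0.096 with 1 library left out. Vehicle values of Timp3 lay within a narrow band that inotodiol 3 exceeded, and its exons overlap those of Syn3 on the other strand, whose reads could not be separated with the strand setting unknown. Timp1, the inhibitor induced by injury and inflammation, had 15, 6 and 12 counts in inotodiol libraries and 4, 0 and 57 counts in vehicle libraries. The vehicle reads of Timp1 thus came almost wholly from replicate 3, and the 0 in vehicle 2 allows up to 3 counts, or 0.325 unscaled CPM.

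**Figure D3:**
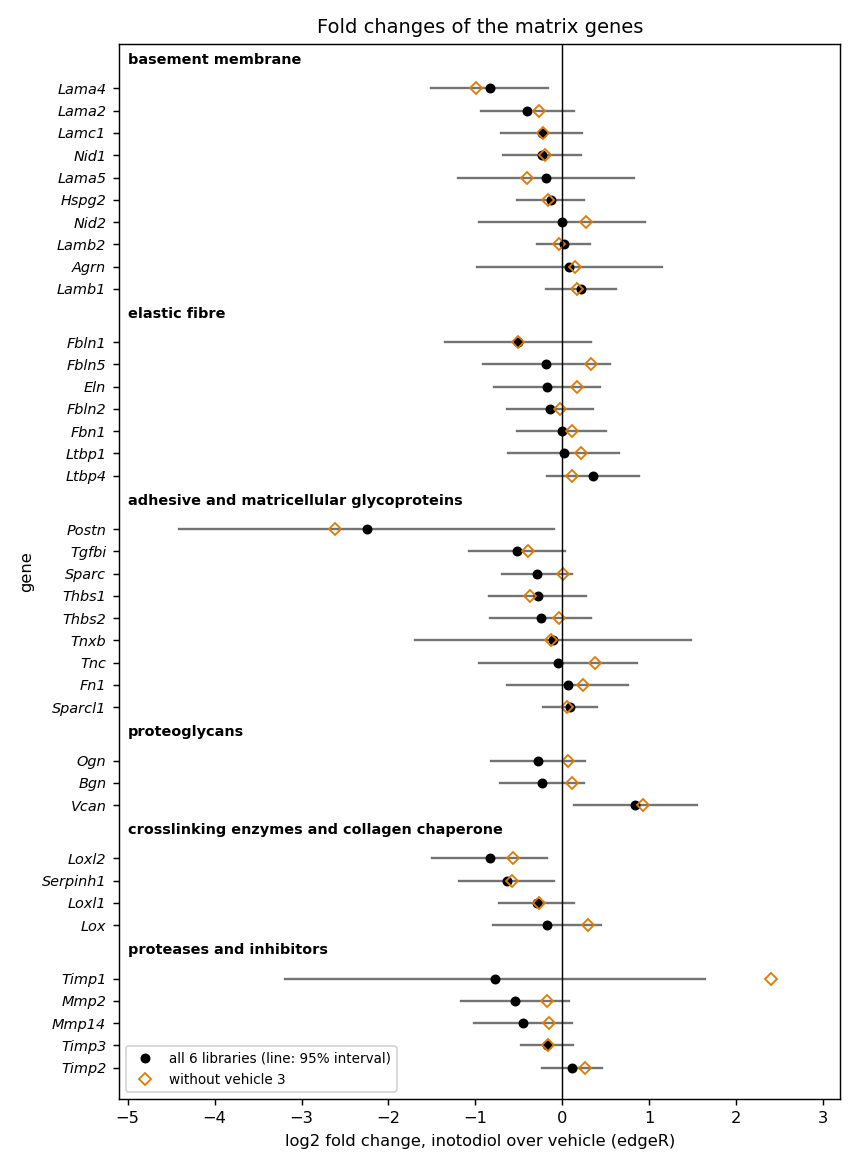
Log2 fold changes of inotodiol over vehicle for the 38 tested genes by role, with all 6 libraries (filled points, lines are 95% intervals) and without vehicle replicate 3 (open diamonds). With all libraries 29 of 38 points lie left of 0, and without vehicle 3 there are 20. Lama4 is among the 19 genes that stay below 0, and Vcan among the 8 that stay above it.

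Around these genes, other parts of the matrix system were read from lists written with earlier results of these data known, so their counts are descriptive. Of 16 collagen chain genes 13 lay below 0 with a median of -0.47, and 8 of 16 did without vehicle 3, with a median of -0.052. Col1a1, the main chain of fibrillar collagen I, had 37.4, 31.7 and 22.2 CPM in inotodiol and 28.9, 38.1 and 229 CPM in vehicle muscle, so its excess lay in the same vehicle mouse. For 1 of the 16 collagen genes all inotodiol values lay below all vehicle values, which is close to the share of 5.26% of all genes. Of 19 further proteoglycan and glycoprotein genes 14 lay below 0 with a median of -0.22, and 9 of 20 did without vehicle 3, with a median of 0.049. Among them Mgp, matrix Gla protein, an inhibitor of calcification, had 91.4, 77.4 and 104 CPM with inotodiol and 124, 106 and 153 CPM with vehicle. The groups of Mgp did not overlap, and its log2 fold change was -0.49 ± 0.17, which edgeR did not call (adjusted p 0.91).

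The TGF-beta list leaned lower with and without vehicle 3. Of 15 genes tested 11 lay below 0 both times, against 50.1% of all genes with all libraries, with medians of -0.17 and -0.21. Ctgf, a matricellular protein induced by TGF-beta and YAP, had 35.8, 66.5 and 67.4 CPM in inotodiol and 77.1, 104 and 141 CPM in vehicle muscle. Tgfbr2, the type II receptor of TGF-beta, had 11.6, 12.4 and 14.3 CPM in inotodiol and 18.9, 23.0 and 23.4 CPM in vehicle muscle. In both genes every inotodiol mouse lay below every vehicle mouse. Their log2 fold changes were -0.92 ± 0.25 and -0.76 ± 0.22, and edgeR called neither (adjusted p 0.62 and 0.66). Smad3, a signal transducer of the TGF-beta receptors, lay the other way and was picked after its values were seen. It averaged 96.9 ± 8.9 CPM in inotodiol and 75 ± 13.5 CPM in vehicle muscle (SD, n = 3 each), with overlap and a log2 fold change of 0.37 ± 0.16 that edgeR did not call (adjusted p 0.96).

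Receptors, further basement membrane genes and further enzymes were read in the same way. The 20 integrin, syndecan, dystroglycan and other matrix receptor genes had 11 below 0 and a median of -0.065, with 0 at an unadjusted p under 0.05. Further basement membrane genes, such as those of collagen IV, had 6 of 12 below 0 and a median of -0.029. Among 11 other crosslinking and collagen processing genes 7 lay below 0 with a median of -0.12. Pcolce, which speeds procollagen cleavage, had 19.0, 23.5 and 23.2 CPM in inotodiol and 28.8, 25.3 and 30.9 CPM in vehicle muscle, with no overlap. Plod3, a lysyl hydroxylase of collagen, averaged 9.46 CPM with inotodiol and 15.9 CPM with vehicle. Of 21 other proteases and inhibitors 14 lay below 0, with a median of -0.27 and of -0.13 without vehicle 3. Adamts15, a protease of versican, had 0.65, 1.55 and 1.54 CPM in inotodiol and 3.69, 4.21 and 3.14 CPM in vehicle muscle. Its log2 fold change of -1.55 ± 0.59 rested on few reads, and edgeR did not call it (adjusted p 0.96).

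**Figure D4:**
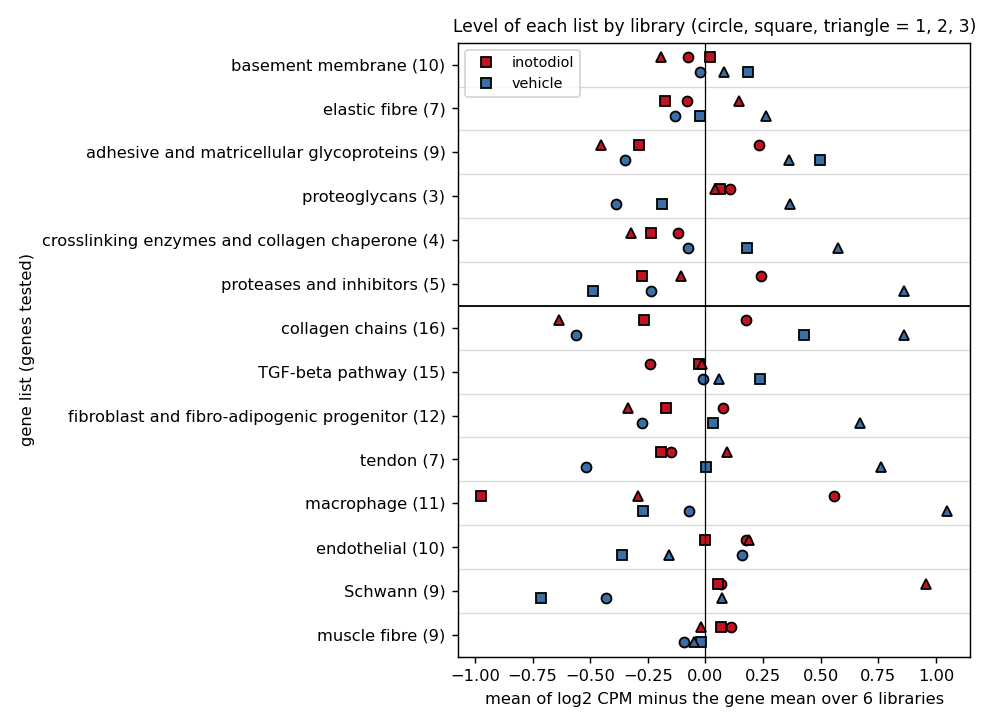
Mean level of each gene list by library, as log2 CPM minus the gene mean over 6 libraries, averaged over the genes tested (number in brackets); the 6 roles of the matrix genes are above the line and further lists below it. Vehicle 3 (blue triangles) is the highest library in 4 of the 6 roles, and also for collagen chains, fibroblast, tendon and macrophage genes.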

How the data were processed

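Gastrocnemius RNA of 3 inotodiol and 3 vehicle mice was analysed, 1 table per mouse. The deposited tables hold raw counts of reads for each gene symbol, from Lexogen Quant-Seq libraries per the labels' protocols. Bowtie2, bedtools and mm10 are named in the submitters' processing notes; their versions, the annotation, the strand setting and how multiply mapped reads were treated are unknown here, so levels were not compared between genes. Counts were filtered with filterByExpr (minimum count 10, minimum total 15), scaled by TMM, then tested in edgeR 4.0.16 under R 4.3.3 (quasi-likelihood, two-sided, group as the only term, Benjamini-Hochberg adjustment at 0.05 over all 11700 genes). Standard errors came from the fitted weights and the moderated dispersion. Log2 CPM used a prior count of 2. The test was checked on simulated counts. P-values set the difference between groups against the spread among 3 mice per group, with the dispersion moderated over all genes tested. Limits for a count of 0 cover counting error only.

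The 39 genes and all lists were chosen with earlier results of these data known. Values per library are given for genes at an unadjusted p under 0.05, and for the 3 with the smallest p and the 1 with the most reads in each role; the others are given by value or range, and at most 3 genes of each pathway list, with 1 such gene not reported here. Cell type lists are given by their sums and counts. Alternatives were scaling by RLE, by upper quartile or by library totals, no filter, 1 CPM in all 6 libraries, DESeq2 1.42.0, limma-voom (limma 3.58.1), the replicate number as a block, Rn45s left out, and each library left out. Gene spans are from GENCODE M21 (GRCm38, the assembly of mm10).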

Additional observations from a re-analysis of the deposited data

How the results depend on the processing

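The count of matrix genes called was 0 under all 15 alternatives. The count of all genes called, 0 with edgeR, was 1 with DESeq2 and 95 with no filter on low counts, and was 0 to 25 in the 6 runs that each left out 1 library, the 25 without inotodiol replicate 3; the cause was not tested. The median log2 fold change of the matrix genes, -0.19, ran from -0.32 with library totals, which moved the median of all genes to -0.12, to -0.18 among the alternatives that kept all libraries. With single libraries left out it ran from -0.31, without vehicle 1, to -0.029, without vehicle 3. Genes below 0 numbered 35 of 38 with library totals, where 66.8% of all genes were below 0, 26 of 38 with limma-voom, and 20 to 33 with single libraries left out. Medians of each role and list without vehicle 3 were added after the data were seen.

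For the 22 genes whose values are given per library by rule, 314 of the values under the alternatives kept their sign and 15 changed it, all 15 in genes whose 95% interval spans 0. With library totals Lamb2 was at -0.099, Sparcl1 at -0.035 and Timp2 at -0.0075. With single libraries left out Lamb2 ran from -0.072 to 0.12, Sparcl1 from -0.037 to 0.21, Timp2 from -0.024 to 0.26, Eln from -0.35 to 0.17, Sparc from -0.42 to 0.012, Bgn from -0.44 to 0.11, Ogn from -0.42 to 0.071 and Lox from -0.39 to 0.29. Deviations of same-numbered libraries correlated at -0.081, 0.11 and 0.023 over genes, and not every library correlated best with its own number. Such weak correlations over all genes cannot show that same-numbered mice shared no origin. With the replicate number as a block 0 genes were called and the median was -0.18, with 26 of 38 below 0. Depth limits Postn, Timp1, Tnxb, Agrn and Mfap4 most, whose counts fell to 40 or fewer in most libraries.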

Other observations

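Tgfb1, the main TGF-beta ligand gene, and Ntn4, a netrin of basement membranes, were listed at 0 in all 6 libraries; the annotation used for counting is unknown here, so such a 0 may be a gene that was not counted. Timp1 had a log2 fold change of -0.77 ± 1.12 with all libraries and of 2.40 ± 1.42 without vehicle replicate 3, the widest swing among the 38 matrix genes. Its sign with all libraries also depended on the method, at 1.05 with limma-voom and 0.63 with the replicate number as a block. Relative to each gene's mean log2 CPM, the 5 protease and inhibitor genes averaged 0.24, -0.27 and -0.11 in inotodiol replicates 1 to 3, and -0.23, -0.49 and 0.86 in vehicle replicates 1 to 3. The 0.86 rested most on Timp1, at 2.40, and the other 4 genes lay at 0.12 to 0.85.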
